A study of Mus musculus with 6 samples.

Results

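The 4 arrays compared here held whole lung RNA of IL4R KO + SMP8-IL4R mice (2 pools) and of WT mice (2 pools), taken by their labels from the 6 arrays of the series. The WT mice had the il4r genotype +/+. The IL4R KO + SMP8-IL4R mice, called transgenic below, were -/- for il4r and +/- for a receptor transgene under the SMP8 promoter, described by the submitters as specific to smooth muscle. The other 2 arrays held IL4R KO mice (-/-), whose values are given beside the comparison and entered the shared estimate of the spread. All mice were BALB/c adults, and every group, WT included, received 2 to 3 µg of IL-13 into the trachea 1 time a day for 7 days. Lungs were collected 24 hours later. Untreated lungs were not analysed here. Each pool combined RNA of 4 mice, so the spread between pools is one between means, and differences between single mice were not measured. The comparison asked which transcripts differ when the receptor can be made only where the SMP8 promoter is active.

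IL-13 is a cytokine of type 2 immunity. It binds a receptor made of the IL-4 receptor alpha chain and the IL-13 receptor alpha 1 chain, whose Janus kinases phosphorylate the transcription factor STAT6. In mouse lung it is known for goblet cells and mucus in the airway epithelium, for alternative activation of macrophages, for chemokines that attract eosinophils and for a greater contractility of airway smooth muscle.

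Array medians lay between 7.08 and 7.11 on the log2 scale. Across genes, the pools of 1 genotype differed with an SD of 0.169 for transgenic, 0.221 for WT and 0.340 for IL4R KO lungs. The lung marker Sftpd, which encodes surfactant protein D of alveolar type 2 cells, was bright in every array (13.9 to 14.3). Liver transcripts were high in WT pool 2 and IL4R KO pool 1, where 15 hepatocyte genes had a mean of 9.41 and 10.01, against 5.87 to 6.23 in the other 4 arrays. Neutrophil transcripts were high in transgenic pool 1, with a mean over 12 genes of 9.82 against 8.19 to 9.17 elsewhere. IL4R KO pool 2, which enters the shared spread, stood apart on 4 sex-linked genes, with a mean of 5.64 against 8.21 to 8.85 in the other 5 arrays.

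Of 45037 probe sets, 34945 named 1 gene. They measured 18193 genes, of which 11861 passed the filter on dim signal, which asked 2 or more arrays to exceed the overall median value (7.10). By limma, 337 genes (2.84%) passed at an adjusted p under 0.05. Lower transcripts in transgenic lungs made up 255 of them (2.15%) and higher ones 82 (0.691%). By over 2-fold, 105 genes (0.885%) were lower and 17 (0.143%) higher, while 215 of the passing genes differed by less. A gene dim in all but 1 group could enter the test only through that group: 222 genes met the filter only with the WT arrays counted, and 52 of them were lower. Among the 11564 genes that met it without WT and without transgenic arrays, 1.76% were lower and 0.683% higher. Counts within the gene lists below stand against 2.15% lower and 0.691% higher over all genes tested. Counts at an unadjusted p under 0.05 stand against 18% of all genes tested. All lists were chosen with earlier results of these data known, so their shares are descriptions and no independent support. Taken singly, 1.04% of all probe sets passed (0.77% lower, 0.273% higher). On the same arrays, 0.101% of genes passed between transgenic and IL4R KO lungs and 4.7% between WT and IL4R KO lungs. The median difference of all tested genes, transgenic minus WT, was 0.032 on the log2 scale, and their 5th and 95th percentiles were -0.33 and 0.29. For 11441 genes (96.5%) the 95% interval of the difference lay within 2-fold. Without the IL4R KO arrays in the fit, 494 genes were lower and 416 higher, so higher transcripts were 45.7% of calls in place of 24.3%.

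**Figure D1:**
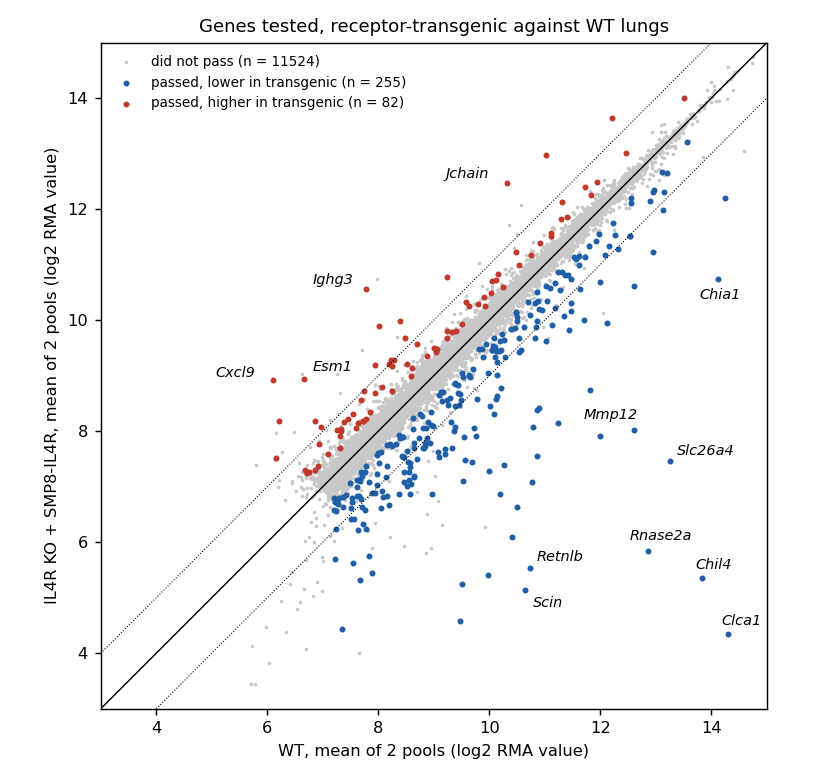
Each point is 1 of the 11861 genes tested, with the mean of the 2 WT pools on the x axis and the mean of the 2 transgenic pools on the y axis (both log2 RMA values). Dotted lines mark 2-fold differences; the 255 lower genes reach far below the lower line at Clca1, Chil4 and Rnase2a, while the 82 higher genes lie closer to the diagonal.

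Every call was repeated with each of the 4 pools left out in turn, which leaves 1 pool in a group and assumes that it varies like the others. Of the 105 genes lower by over 2-fold, 61 passed whichever pool was left out, and 13 passed in none of these fits. Of the 17 genes higher by over 2-fold, 2 passed throughout, Igkv6-14 and Il18. Smaller differences rested on having both pools: of the 150 genes lower by under 2-fold 6 passed throughout, and of the 65 higher by under 2-fold none did. Below, "held" marks a gene that passed in all 4 of these fits. The genes named are the 15 largest falls and rises and the 4 lowest p-values of each list. Every further gene was chosen after its values were seen.

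The targeted gene, Il4ra, encodes the receptor's alpha chain and was read by 3 probe sets, and where these lie against the deletion and the transgene was not established, which leaves the genotype labels unchecked by them. The brightest had 9.98 and 9.84 in the transgenic pools, 9.64 and 9.81 in WT and 9.35 and 9.55 in IL4R KO. Both transgenic pools lay above both WT pools, yet the difference of 0.18 ± 0.10 (SE) did not pass (limma adjusted p = 0.414), and the direction turned with the other probe sets. The next had 8.94 and 8.80 in transgenic against 9.23 and 9.29 in WT lungs, with IL4R KO at 8.92 and 8.93. That difference of -0.39 ± 0.08 did not pass over all probe sets (limma adjusted p = 0.0981). The dimmest differed by -0.19 ± 0.13.

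Of 16 tested genes of the receptor pathway, 2 were lower and none higher (median 0.11). Both were feedback inhibitors of cytokine signalling, and 1 of them met the filter only through the WT pools. Cish had 9.32 and 9.35 in transgenic and 10.3 in each WT pool, a fall of 0.95 on the log2 scale (limma adjusted p = 0.0214), and the IL4R KO pools had 9.58 and 9.18. Socs1 fell by 0.49 (adjusted p = 0.0415). Neither held: with any pool left out Cish gave -0.97 to -0.94 and Socs1 -0.57 to -0.40. The other receptor chain, Il13ra1 (0.14), the kinase gene Jak1 (-0.01) and Stat6 (0.12) did not pass. The decoy receptor Il13ra2, a gene known to respond to IL-13, was too dim for the test, with 5.36 and 5.85 in transgenic, 6.91 and 6.89 in WT and 5.61 and 5.59 in IL4R KO.

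The 15 largest falls all held. Of these, Clca1, Chil4, Rnase2a, Scin, Retnlb, Fer1l6, Itln1, Cxcl5, Capn9 and Muc5ac met the filter only through the WT pools, which favoured a fall. The fits without a pool kept the genes tested, so holding does not address this. Clca1, a protein secreted by goblet cells, had 3.91 and 4.80 in the transgenic pools and 14.3 in both WT pools. Its difference of -9.95 ± 0.34 (SE; limma adjusted p = 0.000141) was the largest of all genes, and its IL4R KO pools had 4.57 and 5.27. The transgenic level was dimmer than the lower quartile over all arrays (5.30), where folds are uncertain, and the other Clca1 probe set gave -4.91. Chil4, a chitinase-like lectin of macrophages and epithelium, had 5.32 and 5.39 in transgenic, 13.8 in both WT pools and 5.197 and 5.203 in IL4R KO. The difference was -8.48 ± 0.06 (adjusted p = 1.63e-07), again against values near that lower quartile. Rnase2a, a ribonuclease of the eosinophil-associated family, had 5.92 and 5.76 against 12.9 and 12.8 (-7.01 ± 0.07, adjusted p = 8.36e-07), with 5.88 and 5.86 in IL4R KO. For each of the 3 genes the transgenic pools lay beside the IL4R KO pools and far from WT.

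Next in size were Slc26a4 (-5.78), the anion exchanger pendrin, and Scin (-5.51), which severs actin filaments. Slc26a4 had 7.99 and 6.95 in transgenic, 13.2 and 13.3 in WT and 7.49 and 7.47 in IL4R KO lungs. Scin had 5.10 and 5.17 in transgenic and 10.7 and 10.6 in WT. Retnlb (-5.19) encodes a resistin-like molecule secreted by goblet cells, and its transgenic values of 5.98 and 5.10 both lay above those of IL4R KO (5.06 and 4.85). The difference of 0.58 from IL4R KO did not pass (adjusted p = 0.449). The ferlin gene Fer1l6 differed by -4.90, the macrophage elastase Mmp12 by -4.59, the lectin Itln1 by -4.57 and the neutrophil attractant Cxcl5 by -4.33. Mmp12 had 8.21 and 7.83 in transgenic, 12.6 and 12.7 in WT and 8.69 and 7.54 in IL4R KO. The remaining falls were those of the calpain Capn9 (-4.27), the gluconeogenic enzyme gene Fbp1 (-4.08), the gel-forming mucin Muc5ac (-3.88), the ion transport regulator Fxyd4 (-3.69) and the acidic chitinase Chia1 (-3.37). Chia1 stayed bright in transgenic lungs, with 10.7 and 10.8 against 14.1 and 14.2. Fbp1 and Chia1 had both transgenic pools below both IL4R KO pools as well, by 0.74 and 0.37 in the means, and neither difference passed (limma adjusted p = 0.385 and 0.219). For Fbp1, IL4R KO pool 1, which held liver transcripts, had 9.14 and pool 2 had 8.18, against 7.89 and 7.94 in transgenic.

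**Figure D2:**
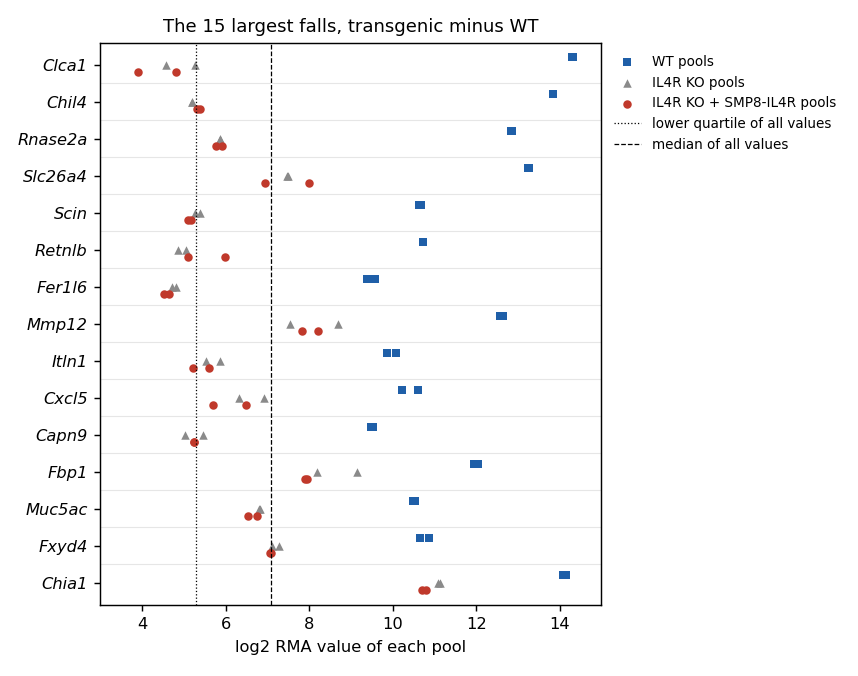
The x axis is the log2 RMA value of each pool for the 15 genes with the largest falls; squares are WT, triangles IL4R KO and circles transgenic pools, 2 of each. In every row both WT squares stand apart on the right, from 9.39 for Fer1l6 to 14.3 for Clca1, and the circles lie near the triangles.

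Promoter sequences were available from RefSeq (build GRCm38.p6) for 10 of the 15 falls, and the 4 largest of these are shown, from 250 bases upstream to the base before the annotated start. Letters in capitals mark matches, on either strand, to TTCNNNNGAA, the spacing that STAT6 is known to prefer, to TTCNNNGAA, the spacing of other STAT proteins, and to TATAAA, the core promoter element.
Chil4 (chr3:106219480-106219729, minus strand): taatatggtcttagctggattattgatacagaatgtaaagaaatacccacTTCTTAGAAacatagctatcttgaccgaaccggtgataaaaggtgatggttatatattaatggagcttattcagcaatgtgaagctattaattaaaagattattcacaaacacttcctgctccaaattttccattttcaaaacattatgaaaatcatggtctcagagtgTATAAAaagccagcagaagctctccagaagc
Rnase2a (chr14:51256113-51256362, minus strand): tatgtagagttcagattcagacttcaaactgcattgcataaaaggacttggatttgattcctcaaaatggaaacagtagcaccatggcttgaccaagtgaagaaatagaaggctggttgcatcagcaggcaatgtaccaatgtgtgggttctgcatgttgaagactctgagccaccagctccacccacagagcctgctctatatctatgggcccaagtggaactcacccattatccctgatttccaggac
Slc26a4 (chr12:31559985-31560234, minus strand): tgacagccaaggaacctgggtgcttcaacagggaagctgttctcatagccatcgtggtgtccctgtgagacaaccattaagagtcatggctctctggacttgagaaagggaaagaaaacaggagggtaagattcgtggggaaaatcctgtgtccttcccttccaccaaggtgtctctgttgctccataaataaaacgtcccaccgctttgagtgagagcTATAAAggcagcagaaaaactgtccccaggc
Scin (chr12:40134229-40134478, minus strand): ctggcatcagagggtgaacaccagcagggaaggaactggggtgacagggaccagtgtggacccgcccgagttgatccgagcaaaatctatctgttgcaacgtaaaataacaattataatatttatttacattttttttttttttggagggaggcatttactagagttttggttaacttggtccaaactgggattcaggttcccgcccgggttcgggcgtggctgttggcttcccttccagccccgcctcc
In Chil4 the capitals are TTCTTAGAA (chr3:106219671-106219679), of the TTCNNNGAA kind, and TATAAA, which ends 25 bases before the start. Slc26a4 has TATAAA at the same distance. Rnase2a and Scin hold none of the 3. Of the 10 promoters, 2 had either STAT spacing, Chil4 and Capn9, whose TTCCTTGGAA (chr8:124575967-124575976, plus strand) is of the TTCNNNNGAA kind, and 3 had TATAAA.

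TTCNNNNGAA occurred in 5.85% of all 32851 promoter windows of this length and in 4.62% of the 12285 of tested genes. Among genes lower in transgenic lungs it occurred in 26 of 246 windows (10.6%), and among higher genes in 2 of 76 (2.63%). Among the 100 windows of genes lower by over 2-fold, 12 held it, 10 held TTCNNNGAA and 15 held TATAAA. TTCNNNGAA occurred in 7.02% of all windows, in 5.83% of those of tested genes, in 5.69% of those of lower genes and in 2.63% of those of higher genes. TATAAA occurred in 12.4%, 6.77%, 14.2% and 10.5% of the same sets. These shares are descriptions of letters in a short window, and some genes have several windows. No difference between them was tested.

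Most tested genes of the goblet and mucous epithelium list, chosen with earlier results of these data known, were lower. Of 20 measured genes 16 were tested, of which 14 were lower (87.5%, against 2.15% of all genes) and none higher. However, 6 of the 14 (Clca1, Muc5ac, Retnlb, Itln1, Spdef and Foxa3) met the filter only through the WT pools, which favoured a fall without forcing one. Of the other 10, 8 were lower, against 1.76% of all genes on that basis. The median difference over all 20 measured genes was -2.16. Muc5b, the other gel-forming airway mucin, had 9.95 in both transgenic pools, 12.2 and 12.1 in WT and 10.1 and 9.81 in IL4R KO (-2.18, limma adjusted p = 0.000672). Fcgbp, a mucus component, differed by -3.07, the protein disulfide isomerase Agr2 by -3.31, the trefoil factor Tff2 by -2.47 and the immunoglobulin transporter Pigr by -1.98. Transcription factors of the goblet program were lower too. Spdef had 6.78 and 6.85 in transgenic, 8.10 and 8.06 in WT and 6.88 and 6.90 in IL4R KO (-1.27, adjusted p = 0.000635), Foxa3 differed by -2.35 and Creb3l1 by -0.90. The secreted Bpifb1 (-1.72) and the glycosyltransferase Galnt12 (-0.88) completed the 14. Without any 1 pool 12 or 13 of them passed, and Foxa3 (-2.52 to -2.18) and Galnt12 (-1.08 to -0.69) were those that did not hold. Galnt7 (-0.10) and St6gal1 (0.15), enzymes of glycan synthesis, did not pass. Of the 4 members too dim for the test, Gcnt3 (-2.49), the stress sensor Ern2 (-2.15) and Creb3l4 (-1.11) had both transgenic pools below both WT pools, and B3gnt6 did not (0.10). In whole lung RNA, fewer cells of a type and less RNA per cell cannot be told apart.

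Of 14 club cell genes, 2 were lower (14.3%, against 2.15% of all genes) and 1 higher (7.14%, against 0.691%), and the list mean lay between 12.75 and 12.95 in all 6 arrays. Reg3g, a secreted antibacterial lectin, had 10.8 and 10.6 in transgenic against 12.0 in both WT pools (-1.30, limma adjusted p = 0.00319) and held. The aldehyde dehydrogenase Aldh1a7 (-0.73) was lower, and the secretoglobin Scgb3a2 (0.50) higher, and neither held (-0.78 to -0.68 and 0.43 to 0.57). None of 14 ciliated cell genes passed by limma (3 had an unadjusted p under 0.05, against 18% of all genes, median -0.17). In 7 of them both transgenic pools lay below both WT pools and in 0 above, against 23.6% and 38.2% of all tested genes. The 95% intervals of all 14 lay within 2-fold, as did 96.5% over all genes. None of 10 alveolar type 1 genes passed either (1 at the unadjusted p, median 0.05), and all 10 intervals lay within 2-fold. Of 12 alveolar type 2 genes 1 was higher, the phospholipid enzyme Lpcat1 (0.54), which did not hold. Other bright Lpcat1 probe sets gave 0.58 and 0.59, and the dimmer ones 0.23 and -0.07. Sftpd (-0.30) and the surfactant protein Sftpa1 (-0.24) did not pass. The 20 genes of protein folding and stress in the endoplasmic reticulum, used heavily by secretory cells, had a median of -0.10. None passed by limma, and 4 had an unadjusted p under 0.05, against 18% of all genes. In 14 of the 20 both transgenic pools lay below both WT pools and in 2 above, orders that 23.6% and 38.2% of all tested genes had. The widest difference was that of Sdf2l1 (-0.44).

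Among 13 genes of epithelial ion and fluid transport, 4 were lower and 2 higher (30.8% and 15.4%, against 2.15% and 0.691% of all genes). Of the 4 lower genes, 1 met the filter only through the WT pools. Beside Slc26a4, the sodium and glucose cotransporter Slc5a1 (-2.43) and the potassium channel Kcnj15 (-1.27) fell and held. Slc5a1 had 7.26 and 6.93 in transgenic, 9.49 and 9.56 in WT and 7.25 and 7.10 in IL4R KO. Water channels differed in opposite directions: Aqp3 (-0.49) fell and Aqp5 (0.45) rose. The sodium channel subunit Scnn1b rose by 0.50, with 10.3 in both transgenic pools and 9.81 and 9.77 in WT. These last 3 did not hold, with ranges of -0.54 to -0.44, 0.40 to 0.50 and 0.48 to 0.53, and Aqp3 probe sets ranged from -0.93 to 0.02.

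Alternatively activated macrophages are those that respond to IL-4 and IL-13. Of 24 tested genes of this list, 18 were lower (75%, against 2.15% of all genes), none was higher, and the median was -1.48. In 23 of the 24 both transgenic pools lay below both WT pools, an order that 23.6% of all tested genes had. Of the 24, 6 met the filter only through the WT pools, and of the other 18, 13 were lower. Beside Chil4, Rnase2a and Mmp12, the lectin Cd209e had 4.47 and 4.42 in transgenic, 7.33 and 7.38 in WT and 4.68 and 4.82 in IL4R KO (-2.91, limma adjusted p = 3.56e-05). The checkpoint ligand Pdcd1lg2 (-2.07), the lectin Mgl2 (-1.77) and the transcription factor Tfec (-1.45) fell and held as well. The transcription factors Irf4 (-0.96) and Egr2 (-1.50) and the lectins Clec7a (-1.02) and Mrc1 (-0.74) passed without holding, with Mrc1 at -0.78 to -0.70. In all, 7 of the 18 held; 12 passed without transgenic pool 1, 13 without pool 2, 7 without WT pool 1 and 8 without WT pool 2.

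Some of the best known members kept high or variable values in transgenic lungs. Chil3 had 12.5 and 11.9 in transgenic, 14.2 and 14.3 in WT and 11.8 and 12.0 in IL4R KO, a fall of 2.04 (limma adjusted p = 0.00556) that did not pass without a WT pool (adjusted p up to 0.0713). Retnla had 13.2 and 12.9 in transgenic against 14.6 in both WT pools (-1.54), and did not pass (adjusted p = 0.0824); IL4R KO had 12.9 and 11.8. The arginase Arg1, which consumes arginine in these cells, had 6.98 and 5.56 against 9.78 and 10.1 (-3.65 ± 0.82, adjusted p = 0.0949). Its IL4R KO pools spread likewise, 7.94 and 5.53, and pool 1 of these held liver transcripts, whose part in this spread was not tested. The oxysterol enzyme gene Ch25h had 8.84 and 8.09 in transgenic, 10.1 and 9.93 in WT and 7.77 and 7.66 in IL4R KO, and fell by 1.55 (adjusted p = 0.0324) without holding (-1.93 to -1.18). The nuclear receptor Pparg (-0.02), the transglutaminase Tgm2 (-0.03) and the lectin Clec10a (-0.04) did not differ by the test, with intervals within 2-fold.

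Genes that mark macrophages in general differed less. Of 17, 1 was lower, the integrin Itgax (-1.70; 10.1 and 9.89 in transgenic, 11.6 and 11.8 in WT), which passed in all fits but that without WT pool 2 (-1.60, limma adjusted p = 0.0518). The fatty acid carrier Fabp4 (0.65), shared with adipocytes, was higher. The list's mean was 9.90 and 9.66 in transgenic and 9.86 and 9.97 in WT, so its groups overlapped. The part of macrophage numbers in the falls above was not tested. Of 17 lysosomal genes 4 were lower, Ctsk (-1.61), Atp6v0d2 (-0.87), Ctss (-0.54) and Lipa (-0.52), and none held: without 1 pool Ctsk gave -1.78 to -1.44. Cathepsin K, encoded by Ctsk, degrades collagen, and had 10.003 and 9.66 in transgenic against 11.5 and 11.4 in WT. Of 9 dendritic cell genes 3 were lower, the transcription factor Batf3 (-1.71), the maturation marker Cd83 (-1.45) and the lectin Cd209a (-0.86), and the integrin Itgae (0.78) was higher. Of the 3 lower genes, 1 met the filter only through the WT pools. Batf3 and Cd83 held. None of 9 genes of antigen presentation by MHC class II passed by limma (4 at an unadjusted p under 0.05, against 18% of all genes, median -0.17).

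Chemokines moved in both directions. Of 25 tested, 7 were lower and 2 higher (28% and 8%, against 2.15% and 0.691% of all genes), and the median was -0.37. Of the 9 calls, 2 of the lower genes met the filter only through the WT pools and both higher genes only through the transgenic pools. Ccl11, the eosinophil attractant eotaxin, had 8.27 and 7.89 in transgenic, 10.8 in both WT pools and 6.87 and 6.47 in IL4R KO. Its difference from WT was -2.70 ± 0.17 (limma adjusted p = 0.00158) and held. The transgenic pools thus lay between the other groups and overlapped neither, and the difference of 1.41 from IL4R KO did not pass (adjusted p = 0.093). The T cell attractant Ccl17 had 7.42 and 7.17 in transgenic, 9.85 and 10.1 in WT and 7.01 and 7.07 in IL4R KO (-2.70, adjusted p = 0.000592), and held.

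Ccl24 (-1.44), Ccl22 (-1.002), Ccl6 (-0.84) and the neutrophil attractant Cxcl1 (-3.09) fell without holding. Cxcl1 differed between transgenic pools, with 8.84 and 7.46, against 11.3 and 11.2 in WT, and gave -3.77 without transgenic pool 1 and -2.40 without pool 2. Cxcl2 (-1.84) and Cxcl3 (-2.34), also attractants of neutrophils, spread over more than 2-fold between transgenic pools and did not pass. The neutrophil marker mean was likewise 9.82 and 8.20 in these pools, and its part in these values was not tested. The median of the list was -0.74 without transgenic pool 1 and -0.16 without pool 2. Ccl2, Ccl7 and 3 others were too dim for the test.

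Of 14 eicosanoid enzymes, 4 were lower and 1 higher (28.6% and 7.14%, against 2.15% and 0.691% of all genes). Of the 4 lower genes, 1 met the filter only through the WT pools. The lipoxygenases Alox12e (-2.10) and Alox15 (-1.51), the thromboxane synthase Tbxas1 (-1.11) and the inducible cyclooxygenase Ptgs2 (-0.93) fell, and Hpgd (0.55), which degrades prostaglandins, rose. Alox15 had 6.80 and 6.95 in transgenic, 8.35 and 8.42 in WT and 7.22 and 7.68 in IL4R KO. Tbxas1 alone held, with limma adjusted p up to 0.049; without 1 pool Alox12e gave -2.29 to -1.90 and Alox15 -1.58 to -1.44. Eosinophil granule genes were dim in every array: Prg2 lay between 4.44 and 4.87 and Epx between 4.39 and 4.77, so 3 of 8 measured eosinophil genes were tested.

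Among 17 interleukins and receptors, Il33 was lower and Il18 higher. Il33, an epithelial alarmin that acts upstream of IL-13, had 11.4 and 11.2 in transgenic, 12.1 and 12.2 in WT and 10.99 and 10.84 in IL4R KO (-0.82, limma adjusted p = 0.0127), and did not hold (-0.92 to -0.72). Il18, a cytokine released by inflammasomes, had 10.04 and 9.92 in transgenic against 8.35 and 8.44 in WT (1.58 ± 0.10, adjusted p = 0.00137). The IL4R KO pools had 9.75 and 9.97, and the transgenic minus IL4R KO difference was 0.12. The rise in Il18 held, and passed in all 17 alternatives.

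Matrix genes were lower in transgenic lungs in 7 of 27 cases (25.9%, against 2.15% of all genes) and higher in none, with a median of -0.08. Collagen VI, a microfibrillar collagen, led them. Col6a2 had 11.95 and 12.03 in the transgenic pools, 13.1 in both WT pools and 11.8 in both IL4R KO pools (-1.14 ± 0.06, limma adjusted p = 0.000791), and held. Col6a1 (-0.74), the growth factor gene Igf1 (-0.76), Col5a2 (-0.45), Col1a1 (-0.48), Postn (-0.44) and Col3a1 (-0.36) followed and did not hold. Periostin, the product of Postn, is a matrix protein known to respond to IL-13. Its transgenic values of 12.1 and 12.2 lay between those of WT (12.5 and 12.6) and IL4R KO (11.7 in both), and without 1 pool it gave -0.49 to -0.40. Igf1 likewise had 9.41 and 9.51 in transgenic, 10.3 and 10.1 in WT and 8.96 and 8.92 in IL4R KO. Of 17 metalloproteinases and inhibitors, Mmp19 (-1.14) and Mmp2 (-0.47) were lower and Mmp3 (0.76) higher, and none of these held. Mmp12 (-4.59), which held, was counted with the macrophage genes above and not in this list. Of 15 genes of fibroblasts and pericytes 1 was higher, Abcc9 (0.39), which did not hold. All 15 intervals lay within 2-fold, near the 96.5% over all genes.

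Of the 105 genes lower by over 2-fold, 43 belonged to a list. Others follow. Corin, a protease that activates natriuretic peptides, had 6.70 and 7.06 in transgenic, 10.3 and 10.1 in WT and 7.56 and 7.43 in IL4R KO (-3.31, limma adjusted p = 0.000584). The amino acid transporter Slc6a20a differed by -2.88, Ocstamp, which takes part in macrophage fusion, by -2.45 and the costimulatory receptor Tnfrsf9 by -1.84, whose other probe sets gave -3.16 to 0.05. These 4 held, as did the C-type lectin Clec4a3 (-1.50), Duoxa1 (-1.48), a maturation factor of the dual oxidases, the trefoil factor Tff1 (-1.15) and Mlph (-1.05), which links granules to myosin. Related lectins Clec4b1 (-1.54) and Clec4a2 (-1.32) fell without holding (-1.71 to -1.37 and -1.56 to -1.07). Aldh1a3, a retinoic acid enzyme, had 6.72 and 6.61 in transgenic, 8.41 and 7.998 in WT and 5.73 and 5.32 in IL4R KO, so the transgenic pools stood between the others. Its fall of 1.54 did not hold (-1.74 to -1.33).

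The higher transcripts were led by chemokine and immunoglobulin genes. Of 16 tested genes of B cells and plasma cells, 9 were higher (56.2% against 0.691% of all genes), none was lower, and the median was 0.87. Ighg3, an immunoglobulin heavy chain, had 10.7 and 10.4 in transgenic, 7.67 and 7.90 in WT and 11.1 and 10.01 in IL4R KO (2.77 ± 0.33, limma adjusted p = 0.0138). The joining chain gene Jchain had 12.2 and 12.7 against 10.3 and 10.4 (2.15, adjusted p = 0.0278). The light chain gene Igkv6-14 had 8.02 and 8.36 against 6.17 and 6.27, with 7.92 and 7.997 in IL4R KO (1.97, adjusted p = 0.00138). Igkv6-14 held, and it was the only one of the 9 to do so: without 1 pool Ighg3 gave 2.66 to 2.89 and Jchain 1.93 to 2.37, past 2-fold yet with adjusted p up to 0.143 and 0.218.

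The other rises of the list were Igkv8-30 (1.95), Igkv9-120 (1.89), Igha (1.44), Mzb1 (1.195), Pou2af1 (0.93) and Ighm (0.82). Mzb1 is a chaperone of antibody-secreting cells and Pou2af1 a transcriptional coactivator of B cells. Among the 16 tested genes of the list, both transgenic pools lay above both WT pools in 13 and below in 2. These orders were those of 38.2% and 23.6% of all tested genes. The surface genes of the B lineage Cd79a (0.55), Ms4a1 (0.53), Cr2 (0.39) and Cd79b (0.25) did not pass, nor did Fcer2a (-0.94), the low affinity IgE receptor. Probe sets of immunoglobulin genes can bind related chains, and those of a gene differed. The next brightest gave 1.41 for Igkv9-120 and 0.65 for Ighm without passing, and dim ones gave 0.06 and -0.07. For Ighg3 the others were dim and gave 0.14 to 0.20.

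Cxcl9, a chemokine induced by interferon gamma, had the largest rise. It had 9.50 and 8.34 in transgenic, 6.11 and 6.09 in WT and 7.95 and 6.91 in IL4R KO (2.82 ± 0.46, limma adjusted p = 0.0383). The call did not hold, with 2.24 without transgenic pool 1 (adjusted p = 0.145) and 3.40 without pool 2 (0.0521), and the other, dim probe set gave 0.55. Cxcl10, induced by the same cytokine, had 9.30 and 8.06 against 7.12 and 7.52 and did not pass (1.36, adjusted p = 0.204). No other of 15 interferon response genes passed (median 0.01). The monocyte attractant Ccl12 had 8.34 and 7.81 in transgenic, 6.97 in both WT pools and 6.97 and 7.01 in IL4R KO. It thus stood apart from both other groups, by 1.10 from WT (adjusted p = 0.0316) and 1.08 from IL4R KO (adjusted p = 0.167), and passed against WT without either transgenic pool but not without a WT pool (adjusted p = 0.230 and 0.215).

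The other large rises belonged to several cell types. Esm1, a proteoglycan secreted by endothelium, had 9.11 and 8.78 in transgenic, 6.52 and 6.80 in WT and 8.39 and 8.90 in IL4R KO (2.29 ± 0.20, limma adjusted p = 0.00518), and passed in all fits but that without WT pool 1 (2.15, adjusted p = 0.0615). Von Willebrand factor, the endothelial gene Vwf, was lower (-0.63), without holding (-0.68 to -0.58), and the other 15 of 17 endothelial genes did not pass. Pon1 (1.55), a lactonase carried on lipoproteins, Olfm2 (1.34), an olfactomedin, and the Fc receptor Fcgr1 (1.32) rose, and the light chain Iglv1 (1.26) with them. Fcgr1 had 8.32 and 8.06 against 6.82 and 6.92, and another of its probe sets gave 0.07. Pon1 and Fcgr1 did not pass without WT pool 1 (limma adjusted p = 0.0856 and 0.0596), and Olfm2 without either WT pool (up to 0.0874). Among higher genes in no list were the sulfotransferase Sult1d1 (1.06), the inhibitory receptor Btla (1.01), the chemokine receptor Cxcr3 (0.84), which binds CXCL9 and CXCL10, the MHC class I regulator Nlrc5 (0.77) and the lymphatic growth factor Vegfc (0.73). None of these 5 held. Vegfc had 8.62 and 8.74 in transgenic, 7.94 and 7.96 in WT and 8.18 and 8.24 in IL4R KO.

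**Figure D3:**
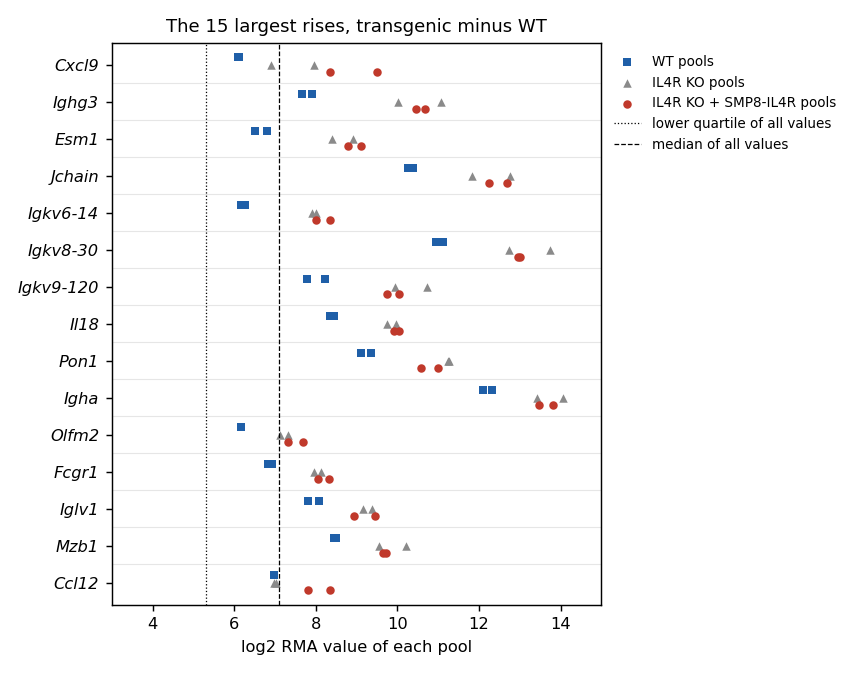
The x axis is the log2 RMA value of each pool for the 15 genes with the largest rises, with symbols as squares for WT, triangles for IL4R KO and circles for transgenic pools. Both WT squares lie left of both circles in each row, the transgenic pools of Cxcl9 stand at 9.50 and 8.34, and at Ccl12 the triangles coincide with the squares.

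Smooth muscle is where the transgene is described as active, and its genes differed little from WT. Of 25 genes of smooth muscle contraction, 1 was higher and none lower, and the median difference was 0.17. The differences ran from -0.005 for the myosin kinase gene Mylk to 0.47 for Actg2, and all 25 had 95% intervals within 2-fold, as did 96.5% of all genes. Actg2, gamma smooth muscle actin, had 11.4 in both transgenic pools, 10.89 and 10.95 in WT and 9.88 and 9.93 in IL4R KO (0.47 ± 0.06, limma adjusted p = 0.0189). It did not hold, with 0.44 to 0.50 and adjusted p up to 0.217, and was lost with the hepatocyte mean as a covariate. Against IL4R KO, which shares the transgenic arrays, its difference was 1.48 ± 0.06 (adjusted p = 0.00473).

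Both transgenic pools lay above both WT pools for 21 of the 25 genes, where 38.2% of all tested genes showed that order, and 11 had an unadjusted p under 0.05. The list mean was 10.60 and 10.65 in the transgenic pools, 10.46 and 10.45 in WT and 10.16 and 10.20 in IL4R KO. The transgenic pools thus stood above WT by less than WT stood above IL4R KO. Calponin, Cnn1 (0.34), Synpo2 (0.31), Pdlim7 (0.25) and the tropomyosin Tpm2 (0.23) had the next lowest p and did not pass. Synpo2 had 9.71 and 9.81 in transgenic, 9.51 and 9.40 in WT and 8.38 and 8.52 in IL4R KO, and its other probe sets gave down to -0.04. Myocd, the coactivator of smooth muscle genes, had 8.88 and 9.05 in transgenic and 8.98 and 8.74 in WT, which overlap, against 7.82 and 7.84 in IL4R KO. Smooth muscle actin Acta2 had 13.55 and 13.59 in transgenic, 13.40 and 13.38 in WT and 12.89 and 12.95 in IL4R KO (0.17, adjusted p = 0.21), and its other probe sets gave down to -0.21. The list median was 0.13 with arrays scaled by cyclic loess.

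**Figure D4:**
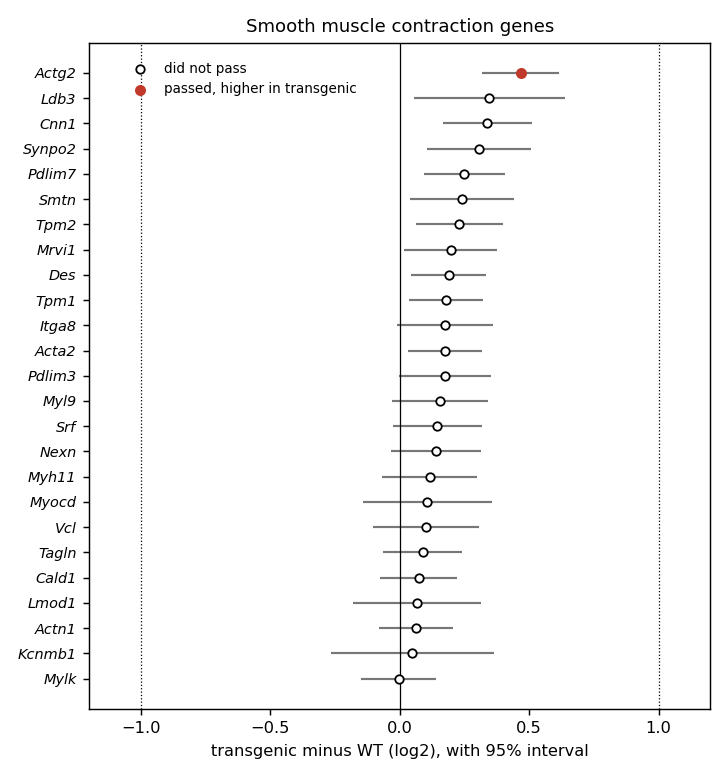
Points are the transgenic minus WT differences (log2, x axis) of the 25 genes of smooth muscle contraction, with 95% intervals as lines and dotted lines at 2-fold. Nearly all points lie right of 0, from -0.005 for Mylk to 0.47 for Actg2, which alone passed (filled), and no interval reaches 2-fold.

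Genes of airway tone and calcium signalling gave no call. None of 19 passed by limma, 6 had an unadjusted p under 0.05 (2133 of all tested genes, 18%, did), their median was 0.11 and all 19 intervals lay within 2-fold. In 12 both transgenic pools were above both WT pools, and in 4 below, orders that 38.2% and 23.6% of all tested genes had. The purinergic receptors differed in opposite directions without passing: P2rx4 (-0.49, limma adjusted p = 0.057) and P2rx1 (0.44, adjusted p = 0.0836). P2rx1 had 7.70 and 7.71 in transgenic, 7.25 and 7.28 in WT and 6.58 and 6.32 in IL4R KO. Rgs5, a regulator of G protein signalling in mural cells, had 10.3 and 10.4 in transgenic, 10.2 in both WT pools and 9.20 and 9.10 in IL4R KO (0.12, adjusted p = 0.461). Rgs4 (-0.63) and the calcium release channel Ryr2 (0.48) did not pass.

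Cardiac muscle, which in mouse lung lines the pulmonary veins, gave calls in both directions. Of 16 genes, 1 was lower and 2 higher (median 0.30). Nppa, the atrial natriuretic peptide, had 8.63 and 8.51 in transgenic, 10.3 and 9.96 in WT and 11.3 and 10.6 in IL4R KO (-1.55 ± 0.25, limma adjusted p = 0.0354). The transgenic pools were thus below both other groups. Nppb, the related peptide, was dimmer and did not pass (-1.03). The sarcomere genes Myh7 (0.62) and Myl7 (0.54) rose, and Myl7 had 11.8 and 11.9 in transgenic, 11.3 in both WT pools and 12.2 and 12.1 in IL4R KO. None of the 3 held, with Nppa at -1.71 to -1.39, Myh7 at 0.58 to 0.66 and Myl7 at 0.48 to 0.60. Of 12 genes of adipocytes and brown fat, Cidec (0.54) and Fabp4 (0.65) were higher and did not hold (0.45 to 0.63 and 0.55 to 0.74). Adipoq (0.53) and Ucp1 (0.66), hormone and uncoupling protein of fat, did not pass, and the median of 0.37 was 0.08 without WT pool 1.

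Fcna, a ficolin of the lectin complement pathway, was the lower of 2 calls among 12 complement and acute phase genes, the higher being Pon1. Fcna had 7.44 and 7.67 in transgenic, 8.41 and 8.46 in WT and 8.41 and 8.44 in IL4R KO (-0.88 ± 0.09, limma adjusted p = 0.00743). Both other groups thus lay above the transgenic pools, and without 1 pool it gave -0.99 to -0.77, past the threshold without either transgenic pool only. Of 11 genes of arginine metabolism 1 was lower, the arginine transporter Slc7a2 (-0.63), which did not hold (-0.67 to -0.58). Its dimmer probe sets fell further, by -1.28, -1.64 and -0.68, and each passed over all probe sets (limma adjusted p = 0.0108, 0.00131 and 0.021). In the mesothelium list 1 of 9 was lower, Upk1b (-0.46), and among T cell and type 2 lymphoid genes 1 of 9 was higher, Icos (0.44). Neither held.

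None of 18 genes of the cell cycle, 6 of NK cells, 3 of mast cells, 14 of the circadian clock, 16 immediate early and heat shock genes, 4 of skeletal muscle or 4 sex-linked genes passed by limma. By an unadjusted p under 0.05 there were 1, 0, 0, 1, 1, 2 and 0 of them, in that order. The cell cycle list had a mean of 8.40 and 8.02 in transgenic and 8.29 and 8.22 in WT. None of 8 neutrophil genes passed by limma, with 1 at an unadjusted p under 0.05. S100a8, a calcium-binding protein of neutrophils, had 13.6 in transgenic pool 1, 10.6 in pool 2, and 10.3 and 10.9 in WT, and the list's median of 1.00 was -0.09 without transgenic pool 1. None of 14 hepatocyte genes passed by limma, 0 of them at an unadjusted p under 0.05 either. Their median of -1.60 was -0.09 without WT pool 2 and -3.12 without WT pool 1, and albumin, Alb, had 11.8 and 5.90 in those pools.

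**Figure D5:**
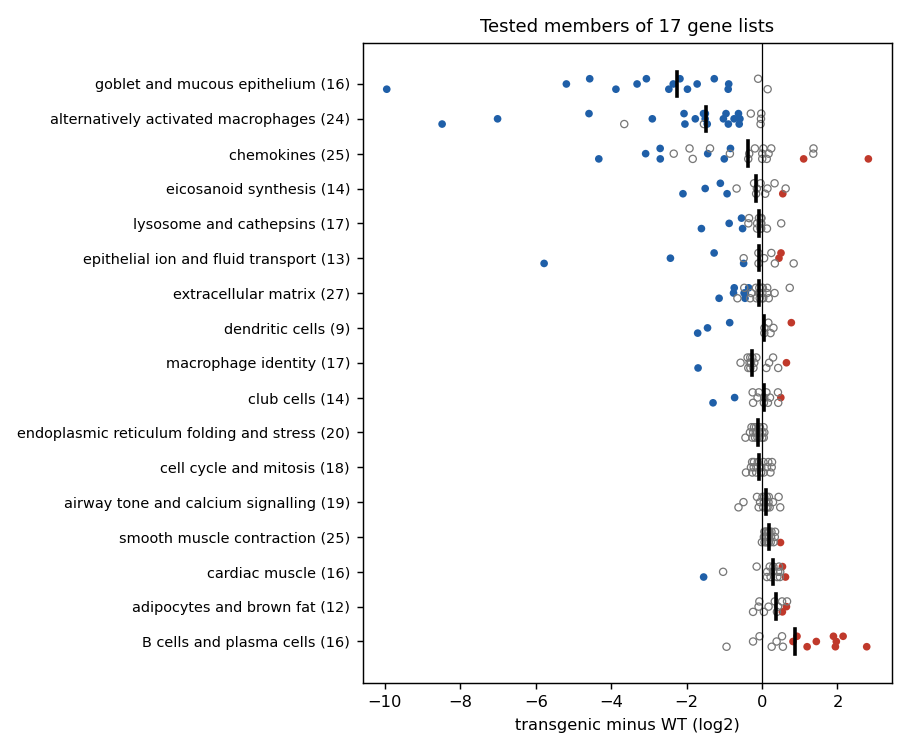
Transgenic minus WT differences (log2, x axis) of the tested members of 17 lists, with the number tested in brackets. Filled points passed the test (blue lower, red higher), open points did not, and black bars are medians, from -2.27 for goblet and mucous epithelium through 0.17 for smooth muscle contraction to 0.87 for B cells and plasma cells.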

How the data were processed

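Whole lung RNA of 6 pools of 4 mice (2 per genotype) was hybridised to 6 mouse expression arrays. The deposited values are log2 signals that the authors made by RMA, per the submitters' processing notes; its version is not given in the sources used here. Labels leave unsaid whether pools shared a litter or day, and p-values measure the spread between pools, which may be technical. Arrays give no counts, and their small number limits the precision.

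For each gene the brightest probe set on average was taken, named from the platform annotation: of 45037 probe sets that were not controls, 34945 had 1 gene, 932 several and 9160 none. Genes that exceeded the overall median value in 2 or more arrays were tested with limma 3.58.1 (R 4.3.3), fitting a mean for each genotype over all 6 arrays (total degrees of freedom 5.86) and Benjamini-Hochberg adjustment over all 11861 genes, at a threshold of 0.05. Errors are SE. The pipeline was tested on simulated data. The members and the 40 gene lists (698 genes, 546 tested) were chosen with earlier results of these data known. Named genes were the 15 largest falls and rises whose groups do not overlap, Il4ra by every probe set and up to 4 members per list with the lowest p. Promoter windows came from RefSeq (GRCm38.p6). The alternatives were 2 other filters, 2 other treatments of probe sets, 1 other moderation, the transgenic and WT arrays alone, a replicate block, 2 scalings, a hepatocyte covariate and the omission of arrays. Probe sets with several genes or none were left out of the gene results.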

Additional observations from a re-analysis of the deposited data

How the results depend on the processing

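The 15 largest falls passed in each of the 16 or 17 alternatives that tested them; of the 15 largest rises, Igkv6-14 (16) and Il18 (17) did. The stricter filter left 12 of these falls and Igkv6-14 untested. Of 173 named genes tested, 80 passed, of which 29 passed in every alternative that tested them and 51 were lost in 1 or more; of the 93 that did not pass, 31 passed in 1 or more. Il4ra turned to -0.39 (limma adjusted p = 0.0498) with the median of its probe sets. A stricter filter left 60 genes lower and 11 higher by over 2-fold, since fewer dim genes were tested, and all probe sets taken singly gave 171 and 29. A trended, robust moderation gave 131 higher genes. The transgenic and WT arrays alone gave 910 genes, 494 lower and 416 higher; leaving out either IL4R KO pool gave the same numbers, since a lone array adds no residual degree of freedom. With 1 transgenic or WT pool left out, the passing genes numbered 77 to 134, with 74 to 120 lower and 3 to 19 higher, and by over 2-fold 65 to 92 lower and 2 to 12 higher. Higher genes then made up 3.9% to 16.2% of calls. Over all pools left out, IL4R KO included, the ranges reached 910, 494, 416, 118 and 22. Without both arrays holding liver transcripts, an alternative chosen after seeing the data, 288 genes passed, 193 lower and 95 higher. With replicate numbers as a block (replicate block), 276 genes passed, 216 lower and 60 higher. Pool differences correlated at -0.0875 between transgenic and WT, 0.121 between transgenic and IL4R KO and -0.509 between WT and IL4R KO. These values cannot settle whether the numbers pair the pools, since the labels do not say how pools were made. Of 640 list medians recomputed, 59 moved by more than the spread between pools. Where the cause of a change is not named, it was not tested. Genes near background have uncertain folds.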
